A study of Homo sapiens with 20 samples.

Results

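The proteasome genes were described in 10 cell lines of human T-cell leukemia (T-ALL, the acute lymphoblastic form) with and without blockade of NOTCH1 signaling. Members were all genes whose symbol on the array platform starts with PSMA, PSMB, PSMC, PSMD, PSME, PSMF or PSMG followed by a digit. These were 41 of the 11963 genes with a probe set of 1 gene. Of them, 39 encode proteasome subunits, regulators or assembly factors. The other 2, PSMC3IP and PSME3IP1, carry a subunit's name but encode partner proteins and are kept apart. All 41 were among the 7695 genes bright enough to be tested.

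Each line gave 1 Affymetrix array after 100 nM of CompE, an inhibitor of the gamma-secretase that releases active NOTCH1 from the membrane, and 1 array after the vehicle DMSO, both at 72 h. All lines carry activating NOTCH1 mutations, so there is no unmutated line, and all are grown in culture. The lines were RPMI8402, KOPTK1, HPB-ALL, DND41 and CUTLL1, with PF382, ALL-SIL, MOLT3, CCRF-CEM and P12-ICHIKAWA. In the last 3 of these the labels give different growth media for the DMSO and the CompE array.

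The proteasome degrades proteins tagged with ubiquitin. Its 20S core is a barrel of alpha rings, which gate the entrance, and beta rings, which hold the proteolytic sites. The 19S cap binds, unfolds and feeds the substrate, with a base of ATPases and a set of non-ATPase subunits. In lymphoid cells the inducible subunits PSMB8, PSMB9 and PSMB10 can replace the catalytic PSMB5, PSMB6 and PSMB7 and form the immunoproteasome, known for producing peptides for MHC class I.

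The T-cell marker CD3D was bright in every line, with signals of 4461 to 9483 in CompE arrays and 5699 to 9676 in DMSO arrays. CD3D, CD3E, CD3G, CD7, CD247 and LCK exceeded 32.5, the signal at the brightness filter, on all 20 arrays. CD2 and CD5 did so on 18 arrays each. The lowest signals of CD2 were 2.61 in CompE arrays and 20.7 in DMSO arrays, and those of CD5 26.6 and 11.2. The summed signal of 8 T-cell markers was 9080 to 21130 in CompE arrays and 9006 to 18550 in DMSO arrays. That of 4 myeloid markers was 18.2 to 71.6 in CompE arrays and 26.7 to 64.9 in DMSO arrays. The sum of 3 B-cell markers reached 1948 in CompE arrays and 2565 in DMSO arrays, through CD79A. Sums of 3 epithelial, 2 erythroid and 4 fibroblast markers reached at most 67.5, 78.6 and 225 in CompE arrays and 88.9, 24.9 and 193 in DMSO arrays. The 3'/5' signal ratio of ACTB, a sign of RNA quality, was 2.28 ± 2.64 in CompE arrays and 1.47 ± 0.687 in DMSO arrays (SD, n = 10 each). It was higher in the CompE array of 9 lines (exact sign-flip test, two-sided, p = 0.00586). KOPTK1 stood apart, with ratios of 9.76 in CompE and 3.32 in DMSO. The total amount of RNA per cell cannot be read from arrays scaled to a common mean.

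Of the 13 constitutive core genes 4 fell after CompE, and no proteasome gene rose. In a paired limma fit on log2(signal + 16) with cell line as a block, 5 of the 39 proteasome genes were called lower at an adjusted p under 0.05 and 0 were called higher. Over all 7695 genes, 3.24 percent were called lower and 3.94 percent higher. The 5 were the core subunits PSMA2, PSMA3, PSMA4 and PSMB5 and the assembly chaperone PSMG1. At an unadjusted p under 0.05, 19 proteasome genes were lower and 0 higher, against 764 lower and 1170 higher among all genes. Of the 39 estimates, 35 were below 0 (89.7 percent), against 41.1 percent of all genes. The median log2 change was -0.16 for the proteasome genes and 0.044 for all genes tested. With the ACTB ratio as a covariate, 1 proteasome gene, PSMB5, was called lower and 0 higher, and 15 were lower at an unadjusted p under 0.05. In that fit 2.13 percent of all genes were called lower, so the members' count of 1 is near that share. Of the 7695 genes, 1785 had an unadjusted p under 0.05 there (limma), in either direction. Without KOPTK1, 9 were called lower, beside 6.09 percent of all genes, and without RPMI8402, 1, beside 1.12 percent. With the line as a random block, PSMG1 was not called (adjusted p = 0.0692), and PSMA5, PSMD14 and PSME1 were, which made 7, beside 3.44 percent of all genes. Leaving out RPMI8402 ended the calls of PSMA2, PSMA3, PSMA4 and PSMG1, and leaving out HPB-ALL those of PSMA2 and PSMA4. CUTLL1, DND41 and MOLT3 each did so for PSMA4 and PSMG1, and PF382 for PSMA4. The largest adjusted p over these fits was 0.0518 for PSMA2, 0.0505 for PSMA3, 0.0785 for PSMA4, 0.0562 for PSMG1 and 0.0499 for PSMB5. The ACTB ratio was higher in the CompE array of 9 lines, so as a covariate it overlaps with the treatment. Its log2 change was largest in KOPTK1 (1.557), followed by DND41 (0.542). The part of RNA quality in these differences was not tested otherwise.

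**Figure D1:**
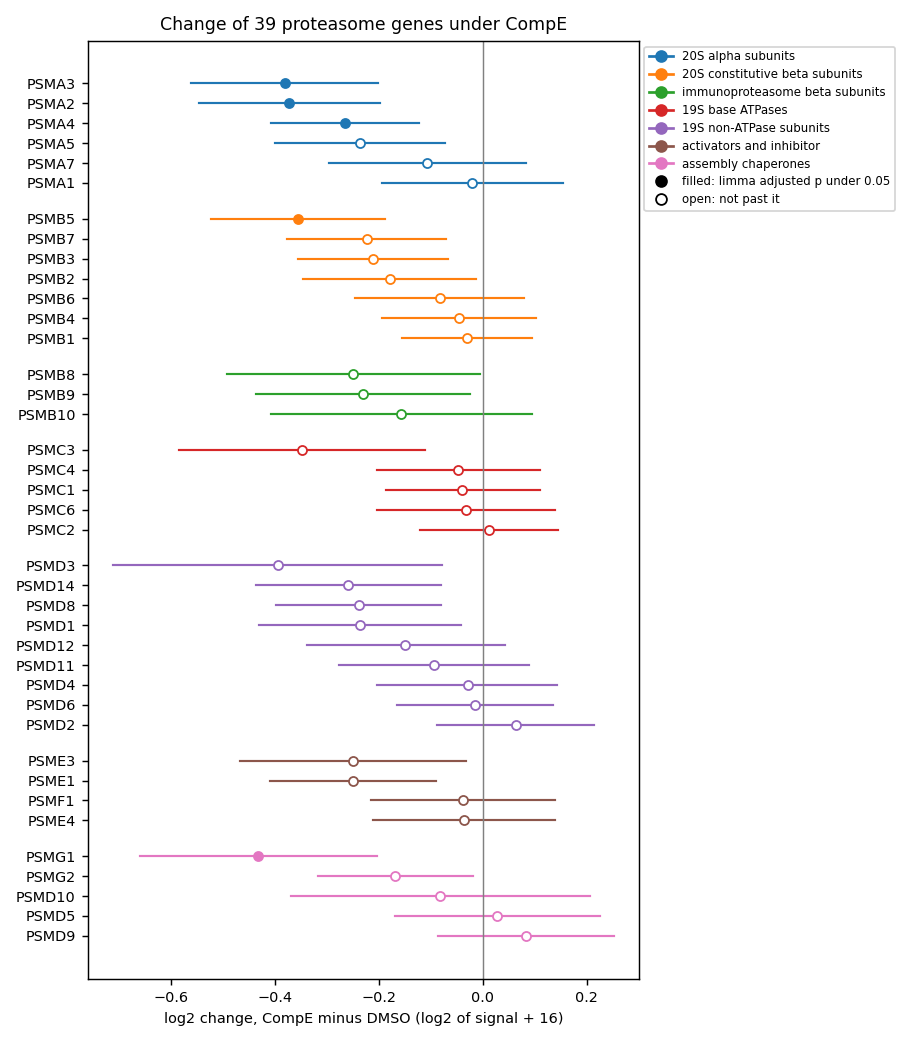
Each row is 1 of the 39 proteasome genes, grouped by class, with its fitted log2 change (CompE minus DMSO, 10 lines) and 95% confidence interval. Filled points passed a limma adjusted p of 0.05. Only PSMC2, PSMD2, PSMD5 and PSMD9 have estimates above 0, and PSMC2 and PSMD5 turn below 0 when arrays are centred on their median.

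The alpha subunits form the outer rings of the core, where substrates enter. PSMA2 had signals of 1421 to 2552 (median 1860) in CompE arrays and 1721 to 3277 (median 2636) in DMSO arrays. CompE was lower in all 10 lines, most in DND41 and least in PF382. The ranges of the groups overlap for this gene and for the other 4 genes called. Its log2 change was -0.37 ± 0.083 (SE; adjusted p = 0.0178, limma). PSMA3 ranged from 1058 to 2030 (median 1401) in CompE arrays and from 1224 to 2334 (median 1893) in DMSO arrays. It was also lower in all 10 lines, by -0.38 ± 0.085 on the log2 scale (SE; adjusted p = 0.0182, limma). The largest difference was in KOPTK1 (-0.95) and the smallest in CCRF-CEM (-0.12). PSMA4 ranged from 1412 to 2603 (median 1839) in CompE arrays and from 1799 to 2898 (median 2139) in DMSO arrays. CompE was lower in 9 lines and level in P12-ICHIKAWA (0.003), with a log2 change of -0.27 ± 0.068 (SE; adjusted p = 0.0294, limma). PSMA5 (-0.24, adjusted p = 0.0714), PSMA7 (-0.11, adjusted p = 0.487) and PSMA1 (-0.020, adjusted p = 0.913) did not pass. The second, much dimmer probe set of PSMA2 gave -0.091, and averaged over both probe sets the gene was at -0.231 and not called (adjusted p = 0.0787). With the ACTB covariate PSMA3 was at -0.232 (adjusted p = 0.115). Other probe sets of PSMA7 and PSMA1 gave -0.32, -0.097 and -0.26.

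Among the constitutive beta subunits, PSMB5, which carries the chymotrypsin-like activity, was the 1 of 7 to pass. It had signals of 305 to 878 (median 503) in CompE arrays and 361 to 1186 (median 684) in DMSO arrays. It was lower in all 10 lines, from -0.041 in MOLT3 to -0.72 in HPB-ALL. Its log2 change was -0.36 ± 0.079 (SE; adjusted p = 0.0178, limma), and it was the 1 proteasome gene still called when any single line was left out. PSMB7, with the trypsin-like site, averaged 1552 ± 328 in CompE and 1815 ± 373 in DMSO (SD, n = 10 each; adjusted p = 0.0689, limma). PSMB6, with the caspase-like site, averaged 1431 ± 273 in CompE and 1541 ± 451 in DMSO (SD, n = 10 each; adjusted p = 0.536, limma). All 7 estimates lay below 0, from -0.36 for PSMB5 to -0.030 for PSMB1. Other probe sets gave 0.334 for PSMB2, 0.147 and -0.177 for PSMB1, and 0.003 for PSMB4. With the mean of all probe sets of a gene the median of the class was -0.083, against -0.179 as reported.

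**Figure D2:**
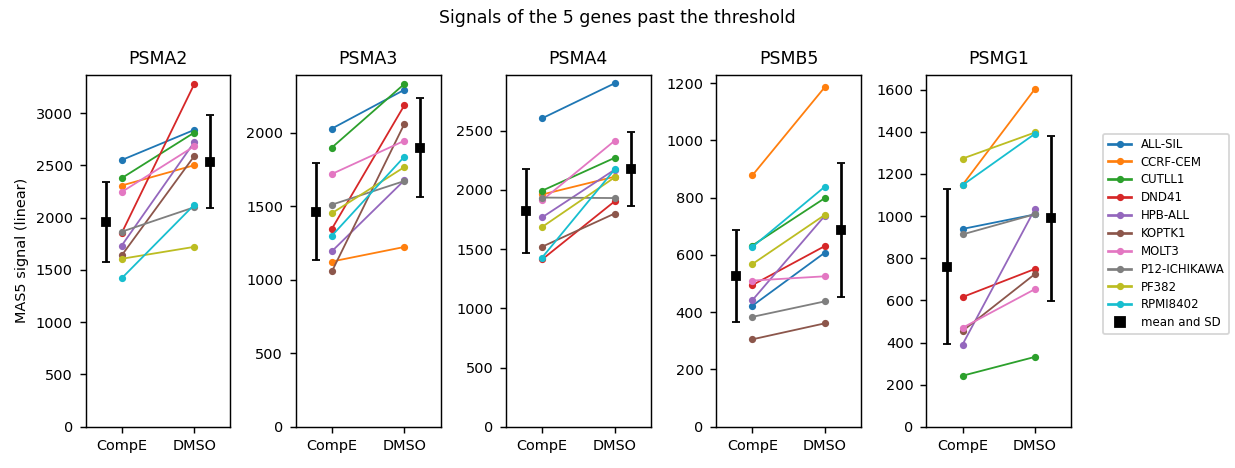
MAS5 signal (linear scale) of the 5 genes past the threshold in CompE (left) and DMSO (right), 1 line joining the arrays of each cell line, with mean and SD beside them. The lines of PSMA2, PSMA3, PSMB5 and PSMG1 all climb toward DMSO, and that of PSMA4 in P12-ICHIKAWA is flat.

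Assembly of the core begins with dedicated chaperones. PSMG1, which helps to build the alpha ring, had signals of 242 to 1273 (median 764) in CompE arrays and 332 to 1604 (median 1008) in DMSO arrays. All 10 lines were lower in CompE, and HPB-ALL showed by far the largest difference (-1.37), against -0.66 to -0.10 in the other lines. Its log2 change was -0.43 ± 0.108 (SE; adjusted p = 0.0271, limma). Its partner PSMG2 was at -0.17 (adjusted p = 0.149), lower in 9 lines. POMP, which matures the beta rings, was at -0.15 (adjusted p = 0.194), with -0.094 under the ACTB covariate and -0.242 without the 3 lines of differing media. PSMD5, PSMD9 and PSMD10, chaperones of the 19S base, were at 0.028, 0.083 and -0.082, with adjusted p of 0.559 or more. PSMD10 ran from -1.38 in KOPTK1 to 0.58 in MOLT3.

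Regions upstream of the transcription start are shown for 4 of the called genes and for PSMB9, whose start lies close to that of TAP1. They are the 250 bases before the RefSeq start on GRCh38.p14, read 5′ to 3′ on the gene's strand. PSMB5 has 2 listed starts, and the first listed is shown. PSMA4, with 3 listed starts, is not shown, and the 250 bases before its first listed start held none of the motifs below. Capitals mark the motifs searched on both strands: the CCAAT box, the RBPJ core TGGGAA (RBPJ is the DNA-binding partner of NOTCH1), the antioxidant response core TGACNNNGC and the E-box CACGTG. Matches of the first motif and of the second on the opposite strand can share letters.
PSMA2 (chr7:42932175-42932424, minus strand): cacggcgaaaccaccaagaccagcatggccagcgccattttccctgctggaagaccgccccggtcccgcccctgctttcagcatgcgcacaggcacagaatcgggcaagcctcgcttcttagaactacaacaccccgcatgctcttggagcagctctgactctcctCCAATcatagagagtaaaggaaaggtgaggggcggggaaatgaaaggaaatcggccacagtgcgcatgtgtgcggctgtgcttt
PSMA3 (chr14:58244593-58244842, plus strand): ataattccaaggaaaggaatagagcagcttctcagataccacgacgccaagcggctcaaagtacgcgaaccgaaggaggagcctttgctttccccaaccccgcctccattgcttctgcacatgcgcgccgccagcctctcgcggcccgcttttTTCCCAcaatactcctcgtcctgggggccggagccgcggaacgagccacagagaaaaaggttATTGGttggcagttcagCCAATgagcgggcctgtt
PSMB5 (chr14:23035221-23035470, minus strand): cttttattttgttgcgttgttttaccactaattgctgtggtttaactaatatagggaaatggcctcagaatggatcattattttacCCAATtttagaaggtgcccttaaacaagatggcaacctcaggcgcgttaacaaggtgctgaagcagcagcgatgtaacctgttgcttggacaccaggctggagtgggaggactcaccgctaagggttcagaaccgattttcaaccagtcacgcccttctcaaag
PSMG1 (chr21:39183452-39183701, minus strand): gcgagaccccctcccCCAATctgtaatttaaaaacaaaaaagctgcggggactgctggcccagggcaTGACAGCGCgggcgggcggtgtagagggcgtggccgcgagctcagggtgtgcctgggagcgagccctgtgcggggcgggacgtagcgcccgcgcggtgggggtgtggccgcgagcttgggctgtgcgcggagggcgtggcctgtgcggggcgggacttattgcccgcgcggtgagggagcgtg
PSMB9 (chr6:32853942-32854191, plus strand): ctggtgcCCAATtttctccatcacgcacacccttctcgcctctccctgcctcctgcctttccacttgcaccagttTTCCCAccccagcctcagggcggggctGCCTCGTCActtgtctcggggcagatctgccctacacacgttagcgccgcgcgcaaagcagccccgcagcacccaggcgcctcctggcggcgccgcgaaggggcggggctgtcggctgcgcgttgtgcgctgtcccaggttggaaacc
Of the 39 genes, 34 had a promoter in the table. Within 300 bases around any listed start, CCAAT was found in all 5 genes called lower (for PSMA4 at another of its 3 starts), in 17 of the 34 proteasome genes and in 45.2 percent of the genes tested. TGGGAA was in 10 of 34 (29.4 percent), against 27.9 percent of the genes tested, and CACGTG in 3 of 34 (8.82 percent), against 13.5 percent. TGACNNNGC was in 13 of 34 (38.2 percent), against 20.5 percent. These are matches of letters in a window, not binding sites.

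Among the 14 genes of the 19S cap analysed here, 0 passed the threshold. PSMC5, PSMD7 and PSMD13 of the cap were not analysed. Over all genes tested 3.24 percent were called lower, so a count of 0 among 14 is near that share. The cap's estimates were below 0 for 12 of 14 genes (85.7 percent), against 41.1 percent of all genes. At an unadjusted p under 0.05 (limma), 5 of the 14 were lower, against 764 of all 7695 genes. The cap's median log2 change was -0.070, against -0.21 for the 13 constitutive core genes. With the ACTB covariate the cap median was -0.123 and the core median -0.162, and the non-ATPase subunits (-0.187) lay below the constitutive beta subunits (-0.155). Of the 5 ATPases, PSMC3 had the largest change, with signals of 214 to 655 (median 550) in CompE arrays and 178 to 1053 (median 659) in DMSO arrays. It was lower in 9 lines, and the CompE array was higher in KOPTK1, where the gene was dimmest in both arrays. Its log2 change was -0.35 ± 0.112 (SE; adjusted p = 0.0677, limma), and it passed without KOPTK1 (adjusted p = 0.0167). PSMC2 was level, at 1871 ± 338 in CompE and 1855 ± 333 in DMSO (SD, n = 10 each; adjusted p = 0.931, limma). Of the 9 non-ATPase subunits, PSMD3 had the largest difference. Its signals were 130 to 484 (median 311) in CompE arrays and 86.5 to 652 (median 461) in DMSO arrays, a log2 change of -0.40 ± 0.149 (SE; adjusted p = 0.112, limma). The lines were far apart for this gene, from -1.45 in P12-ICHIKAWA to 0.51 in KOPTK1. PSMD14, the deubiquitinase of the cap, was at -0.26 (adjusted p = 0.0702), and PSMD8 at -0.24 (adjusted p = 0.0619). PSMD1 was at -0.24 (adjusted p = 0.121), but averaged over both of its probe sets it was at -0.289 and called (adjusted p = 0.042, limma). PSMD2, which helps to dock ubiquitin carriers, was at 0.064 (adjusted p = 0.623).

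**Figure D3:**
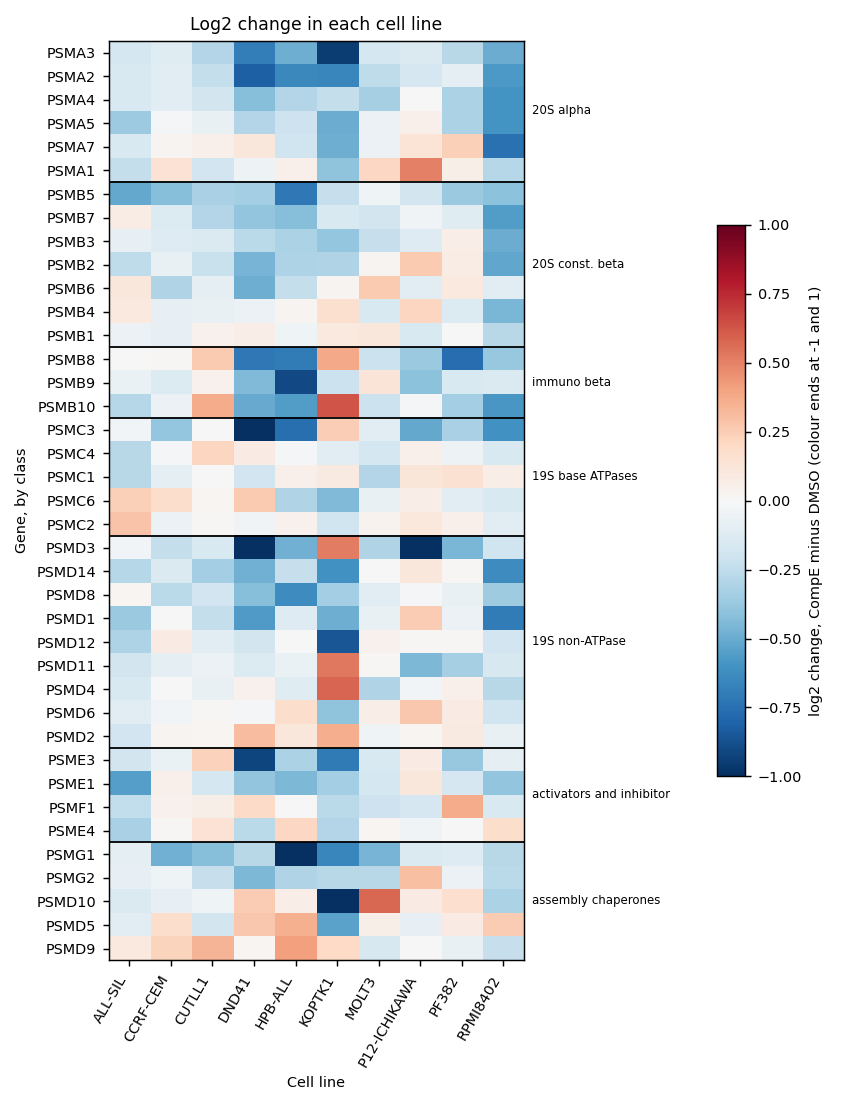
Log2 change (CompE minus DMSO) of each of the 39 genes in each of the 10 lines, blue where CompE is lower. PSMA2, PSMA3, PSMB5 and PSMG1 are blue across all lines, while PSMD10 is lowest in KOPTK1 and PSMB8 and PSMB10 are above 0 in both KOPTK1 and CUTLL1.

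The lines differed in how far the core genes moved. The median over the 13 core genes ran from -0.50 in RPMI8402 to -0.035 in P12-ICHIKAWA and was below 0 in 10 of 10 lines. That of the cap was below 0 in 9 of 10 lines, from -0.20 to 0.035. The core median was below the cap median in 8 of 10 lines; this difference was not tested. The median over all genes was below 0 in 1 of 10 lines. In RPMI8402, 36 of the 39 proteasome genes (92.3 percent) were lower in CompE, against 42.8 percent of all genes tested. In P12-ICHIKAWA 20 were (51.3 percent), near the 45.3 percent of all genes there.

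**Figure D4:**
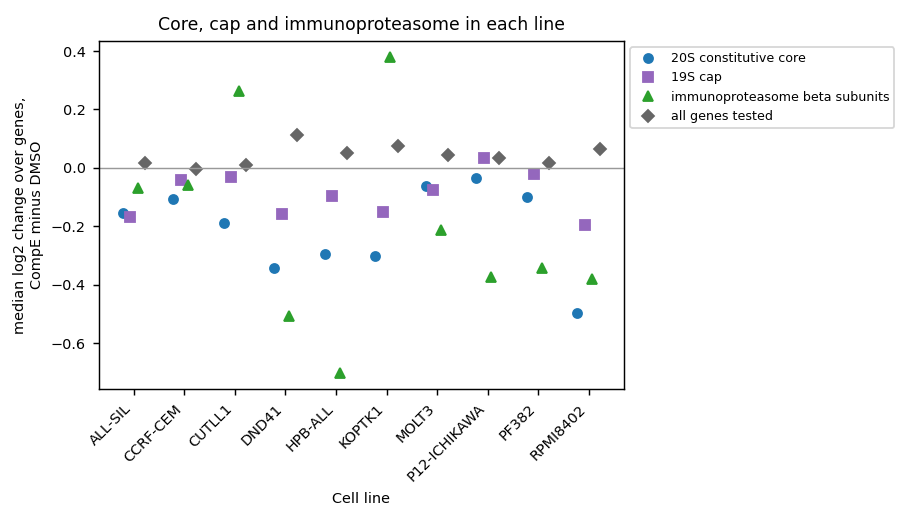
Median log2 change (CompE minus DMSO) in each line over the core, the cap, the 3 immunoproteasome genes and all genes tested. The core points lie below 0 in all 10 lines, and the immunoproteasome points spread from -0.70 in HPB-ALL to 0.38 in KOPTK1.

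The inducible subunits did not pass the threshold. The line held 86.4 to 92.2 percent of their sums of squares, and the treatment 1.13 to 5.49 percent. PSMB8 had signals of 169 to 1364 (median 670) in CompE arrays and 297 to 1365 (median 789) in DMSO arrays, a log2 change of -0.25 ± 0.115 (SE; adjusted p = 0.19, limma). It was lower in 7 lines and higher in KOPTK1 (0.38) and CUTLL1 (0.26). PSMB9 had signals of 232 to 688 (median 413) in CompE arrays and 259 to 868 (median 525) in DMSO arrays, a log2 change of -0.23 ± 0.097 (SE; adjusted p = 0.153, limma). PSMB10 had signals of 71.7 to 533 (median 316) in CompE arrays and 115 to 743 (median 371) in DMSO arrays, at -0.16 ± 0.119 (SE; adjusted p = 0.433, limma), and at -0.32 with the ACTB covariate (adjusted p = 0.15). In DMSO arrays the brightest line exceeded the dimmest 6.45-fold for PSMB10, 4.60-fold for PSMB8 and 3.36-fold for PSMB9. Over the 39 genes this ratio ran from 1.38-fold for PSMB1 to 7.54-fold for PSMD3, with a median of 1.99-fold. PSMC3 (5.93-fold), PSMG1 (4.84-fold) and PSMB5 (3.28-fold) were also wide, so a large spread was not confined to the inducible genes. KOPTK1, whose DMSO array had an ACTB ratio of 3.32, was the dimmest line for PSMD3, PSMC3 and PSMB5, and CUTLL1 for PSMG1. Outside KOPTK1, DMSO signals of PSMC3 ran from 557.6 to 1053 and those of PSMD3 from 266 to 651.8. The line accounted for a median of 82.7 percent of the sum of squares of the proteasome genes, from 36.9 percent for PSME1 to 95.2 percent for PSMF1, and for 80.2 percent over all genes.

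The change of each inducible subunit was set against that of the constitutive subunit it replaces, within each line. The log2 difference was 0.11 ± 0.396 for PSMB8 minus PSMB5, with an interval of -0.18 to 0.39 (SD, n = 10; exact sign-flip p = 0.398, adjusted over 3 pairs 0.568). It was -0.15 ± 0.245 for PSMB9 minus PSMB6, with an interval of -0.32 to 0.028 (SD, n = 10; exact sign-flip p = 0.0801, adjusted 0.24). It was 0.067 ± 0.369 for PSMB10 minus PSMB7, with an interval of -0.20 to 0.33 (SD, n = 10; exact sign-flip p = 0.568, adjusted 0.568). The intervals are 95% and leave room for differences in either direction. TAP1, the peptide transporter gene whose start lies 488 bases from that of PSMB9, averaged 388 ± 140 in CompE and 333 ± 115 in DMSO (SD, n = 10 each; adjusted p = 0.238, limma). TAP1 was higher in CompE in 7 lines and PSMB9 lower in 8. With the ACTB covariate the log2 change of TAP1 was 0.059, against 0.198 without it, and that of PSMB9 was -0.18, against -0.23. Across the 10 DMSO arrays, log2 signals of PSMB9 and TAP1 had r = 0.73, and across the changes r = -0.13. This was not particular to that pair. In DMSO arrays r was 0.7 for PSMB8 and TAP1, 0.68 for PSMB9 and PSMB10, and 0.62 for PSMB8 and PSMB9. It was 0.38 for PSME1 and PSMB9, and -0.18 to 0.11 between inducible subunits and their constitutive counterparts. Each r is over 10 lines, with both genes read from the same arrays.

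**Figure D5:**
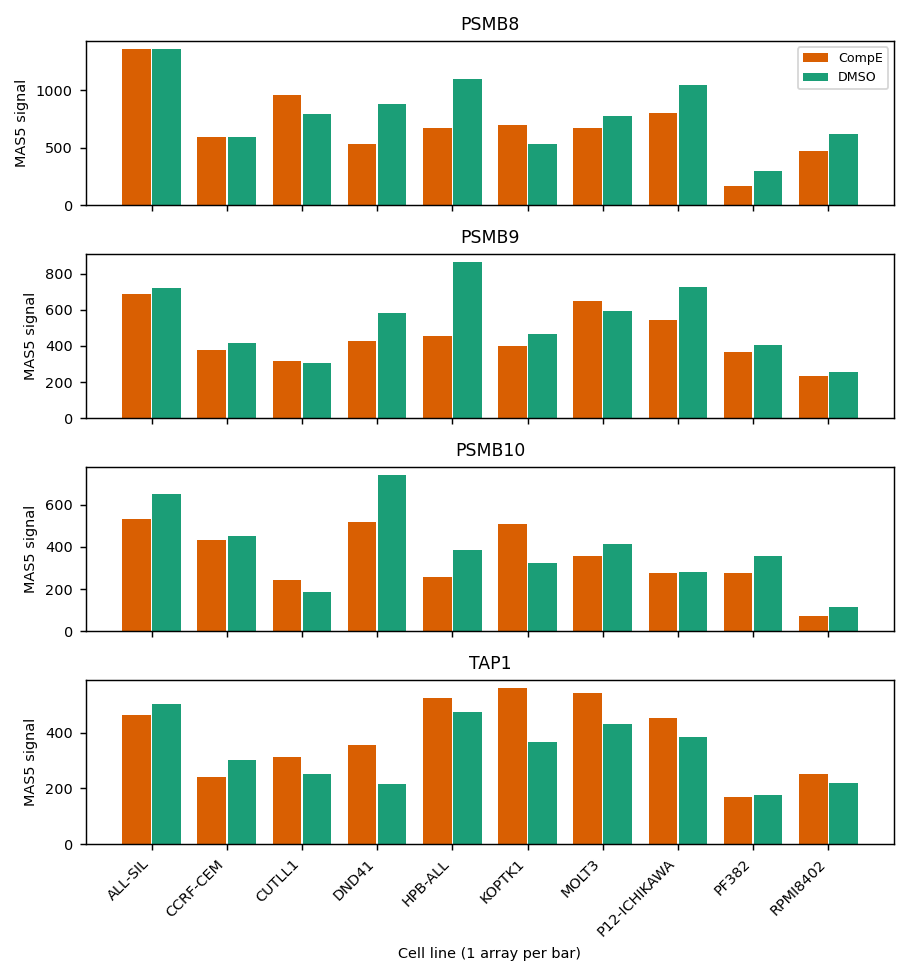
MAS5 signal of PSMB8, PSMB9, PSMB10 and TAP1 in the CompE (left bar) and DMSO (right bar) array of each line. PF382 is lowest for PSMB8 and RPMI8402 for PSMB10 in both arrays.

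Activators open the gate of the core without ATP. PSME1, a subunit of the interferon-induced activator, had signals of 1334 to 1636 (median 1455) in CompE arrays and 1413 to 2406 (median 1711) in DMSO arrays. It was lower in 8 lines, at -0.25 ± 0.076 (SE; adjusted p = 0.0553, limma). The nuclear activator PSME3 was at -0.25 (adjusted p = 0.14; -0.112 with the ACTB covariate), PSME4 at -0.036 (adjusted p = 0.826) and the inhibitor PSMF1 at -0.038 (adjusted p = 0.818). The second probe set of PSMF1 gave -0.31. The partners PSMC3IP and PSME3IP1 were at -0.20 and 0.20 (adjusted p = 0.293 for both).

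Genes around the proteasome were described from lists. Of 23 tested genes of the ubiquitin-proteasome list, 2 were lower and 0 higher, with a median log2 change of -0.023, beside 3.24 percent lower, 3.94 percent higher and a median of 0.044 over all genes tested. RAD23B, a carrier of ubiquitinated proteins to the cap, averaged 546 ± 153 in CompE and 732 ± 162 in DMSO (SD, n = 10 each; adjusted p = 0.0127, limma), lower in all 10 lines. UCHL5, a deubiquitinase bound to the cap, averaged 340 ± 87.1 in CompE and 454 ± 71.8 in DMSO (SD, n = 10 each; adjusted p = 0.046, limma), lower in 9 lines. The call of UCHL5 ended when any of 7 lines was left out (adjusted p up to 0.118). NFE2L1, a transcription factor of proteasome genes, was at 0.27 (adjusted p = 0.131), but at 0.100 with the mean of its 3 probe sets and at 0.068 with the ACTB covariate. Of 11 tested antigen presentation genes, 0 were lower and 1 was higher, with a median of 0.077, beside those same values over all genes. That gene was CALR, a chaperone of peptide loading, at 1631 ± 621 in CompE and 1099 ± 421 in DMSO (SD, n = 10 each; adjusted p = 0.0241, limma). It did not pass without HPB-ALL or RPMI8402 (adjusted p up to 0.0657), nor with the mean of its 3 probe sets (0.266, adjusted p = 0.266). IRF1, a transcription factor of PSMB9 and TAP1, was at -0.32 (adjusted p = 0.0688). MYC, a target of NOTCH1 in T-ALL, had a log2 change of -1.499 ± 0.282 (SE; adjusted p = 0.0107, limma). MYC was lower in 9 lines, most in KOPTK1 (-3.849), and higher in P12-ICHIKAWA (0.534). With the ACTB covariate, RAD23B (adjusted p = 0.0601), UCHL5 (0.267), CALR (0.0964) and MYC (0.057) did not pass.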

How the data were processed

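The authors deposited linear signal intensities from MAS5, per the submitters' processing notes, with its version and settings not given in the sources used here. MAS5 subtracts mismatch signal, so dim values are noisy. Control probe sets were left out and probe sets were named from the platform annotation; 1043 probe sets listed with several genes were not named, among them all of PSMA6 and PSME2. The probe set brightest on average over 20 arrays stood for its gene. A filter at the 40th percentile of average log2 signal kept 7695 genes.

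Log2(signal + 16) was fitted with limma 3.58.1 under R 4.3.3. The model had the line as fixed block, a trend on intensity and Benjamini-Hochberg adjustment over 7695 genes, two-sided, at 0.05; the offset understates changes of dim genes. Arrays were paired by the line named in their labels, and each of the 10 CompE arrays was closest (highest r) to its own line's DMSO array. Differences between subunits used an exact sign-flip test over 10 lines (1024 patterns, smallest p 0.00195), with 95% intervals of the paired mean. Whether a line's arrays came from separate cultures is not in the labels. With the line as block, p-values rest on how far the change within a line varies from line to line. The fit was tested on simulated data. Precision is limited by the number of arrays, 10 pairs. Alternatives changed the offset, filter, probe set rule, scaling, block, ACTB covariate and lines.

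The members and the lists were chosen with earlier results of these data known. Genes named were those past the threshold, the catalytic and inducible subunits, activators, inhibitor and PSMG1, the largest and smallest change of each class, and NFE2L1, POMP, TAP1 and MYC. Other members and IRF1 were named after their values were seen. PSMC5, PSMD7, PSMD13, PSMG3, PSMG4, PSMA8 and PSMB11 were not analysed here. Promoter sequences are from RefSeq (GRCh38.p14).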

Additional observations from a re-analysis of the deposited data

Results flagged for a closer look

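In 27 named genes, the CompE signals, DMSO signals and changes of 10 lines were searched for a single line far from the others. The search used Dixon's gap on log2(signal + 16), while the signals below are printed on the linear scale. Chance alone flags a line in about 1 in 20 groups, and 8 of 81 groups held one. KOPTK1 accounted for 4 of them. PSMC3 had a signal of 213.6 in CompE KOPTK1, against 428.7 to 655 in the other lines, and of 177.5 in DMSO KOPTK1, against 557.6 to 1053. PSMD3 had a signal of 86.46 in DMSO KOPTK1, against 266 to 651.8, and PSMB7 one of 1007 there, against 1469 to 2164. Among the inducible subunits, PSMB8 had a signal of 168.6 in CompE PF382, against 472.7 to 1364 in the other lines, and PSMB10 one of 71.71 in CompE RPMI8402, against 242.8 to 532.7. PSMA3 had a signal of 1224 in DMSO CCRF-CEM, against 1673 to 2334. The log2 change of PSMG1 was -1.369 in HPB-ALL, against -0.655 to -0.101 in the other lines.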

How the results depend on the processing

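The median log2 change of the proteasome genes stayed between -0.138 and -0.232 across all alternatives, and 0 of 39 genes were called higher in any. Without the cell line as a block, 0 genes of all tested and 0 proteasome genes were called lower (limma; 369 of all genes and 6 proteasome genes had an unadjusted p under 0.05), because the spread between lines then counts as error. The ACTB ratio as a covariate left 318 genes called, with 1 proteasome gene lower. Leaving out the 3 lines with differing medium labels left 298, with PSMA2, PSMA3, PSMB5 and PSME1 lower. Leaving out 1 line each gave 181 (without HPB-ALL) to 1031 (without KOPTK1) genes called, and 1 (without RPMI8402) to 9 (without KOPTK1) proteasome genes lower; it was 3 without CUTLL1, DND41, HPB-ALL or MOLT3. The cause was not tested. Centring arrays on their median turned the split of all calls to 289 lower and 200 higher (3.76 and 2.6 percent), against 249 and 303, and called 6 proteasome genes, PSMC3 added. With the line as a random block 7 were called, PSMG1 not among them. PSMB5 was called in 9 of 10 alternatives and in all 10 fits without 1 line, PSMA3 in 8 and 9, PSMA2 in 7 and 8, PSMA4 in 7 and 4, PSMG1 in 6 and 6. Outside the members, where the same alternatives were added after seeing the data (as for the core and cap medians), RAD23B was called in 8 and 10, CALR in 6 and 8 and UCHL5 in 5 and 3.

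Some estimates changed sign, none of them called; most lay near 0, but PSMB2 was -0.179 and PSMD12 -0.149 as reported. With the mean of all probe sets PSMB2 was 0.078, PSMD11 0.064 and PSME4 0.060. With centred arrays PSMC2 was -0.026 and PSMD5 -0.010, and with quantile normalization PSMD6 was 0.013. With the ACTB covariate PSMA1 was 0.028, PSMC6 0.052, PSMD10 0.18, PSMD12 0.001, PSMD2 -0.031, PSMD6 0.050, PSME4 0.027 and PSMF1 0.009. Without the 3 lines PSMD4 was 0.006. Leaving out 1 line gave PSMA1 -0.078 to 0.023, PSMC2 -0.018 to 0.036, PSMC6 -0.064 to 0.014, PSMD10 -0.156 to 0.062, PSMD4 -0.097 to 0.001, PSMD5 -0.009 to 0.090 and PSMD6 -0.046 to 0.029. The difference PSMB10 minus PSMB7 was -0.013 (without KOPTK1) to 0.114. The lowest signal of a member on any array was 71.7, over the filter's 32.5.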
